A study of Mus musculus with 12 samples.

Results

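The insulin-like growth factor (IGF) axis and growth hormone signalling were followed here through 10 genes in mouse liver: Igf1, Igfals, Igfbp1, Igfbp2, Igfbp3, Igfbp4, Igf1r, Ghr, Stat5b and Socs2. The genes were chosen by symbol, as every probe set that the array annotation gives to 1 of these symbols alone. They are 10 of the 18193 genes so represented on the array, and all 10 were among the 14102 genes tested. They carry 31 probe sets, of which 26 passed the filter on dim probe sets and 5 did not.

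Growth hormone from the pituitary binds its receptor GHR on hepatocytes, which activates the kinase JAK2 and the transcription factor STAT5B. STAT5B in turn drives Igf1, the gene for the circulating growth factor, and Igfals, whose product holds IGF-I in the blood in a complex with IGFBP3, and also Socs2, an inhibitor that acts back on the receptor. The other IGF binding proteins carry IGFs and limit their access to the receptor IGF1R, which hepatocytes express poorly, and Igfbp1 is a classical gene that insulin represses through loss of FOXO1 from its promoter.

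Liver RNA came from female YAP fl/fl mice aged 8 to 12 weeks, so all groups carry the floxed alleles and all received an AAV8 vector. Knockouts (KO) received Cre from the hepatocyte promoter TBG (AAV8.TBG.PI.Cre.rBG), and wild-type controls (WT) received GFP from the same promoter (AAV8.TBG.PI.eGFP.WPRE.bGH8). TCPOBOP activates the nuclear receptor CAR and makes hepatocytes divide, and it was gavaged once at 3 mg/kg in corn oil 10 days after the vector, and day 0 livers had the vector alone. For KO there are 2 arrays of day 0, 3 of day 2 and a single pooled array of day 1, and the same numbers for WT, which makes 12 arrays. Cells other than hepatocytes keep Yap1 in this model. Every liver taken after day 0 had TCPOBOP, so effects of the drug cannot be told apart from those of gavage, time or harvest. The labels number the replicates without naming animals, so p-values measure the spread between these samples. In bulk liver, fewer cells of a type and less RNA per cell cannot be told apart.

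Values are MAS5 signals, in arbitrary units of brightness, and differences are of log2(signal + 16), given with the standard error of the limma fit; folds are on that scale too. A gene was called at a Benjamini-Hochberg adjusted p under 0.05 over all genes tested, and each gene was represented by its brightest kept probe set. Array medians lay between 231.6 and 277, and the number of arrays limits the precision. Yap1 (probe set 1448363_at) read 449.6 to 796.7 on the KO arrays and 999.2 to 1306 on the WT arrays, and the 2 ranges did not overlap. By that probe set KO minus WT was -0.92 at day 2 (adjusted p 0.00844) and -1.02 at day 0, where it was not called (adjusted p 0.0914). Another Yap1 probe set, 1416487_a_at, read 57.8 to 125.7 on the KO arrays and 23.1 to 389.3 on the WT arrays, which overlap. At day 2 the signal range was narrower on the KO arrays than on the WT arrays. The median KO minus WT difference was 0.21 for the 2021 dimmest genes (mean log2 signal under 8). For the 152 brightest (over 14) it was -0.41. Both genotypes moved from day 0 to day 2: the medians for the dimmest and brightest genes were 0.05 and -0.42 in KO. In WT they were -0.17 and 0.16. Of the 9 hepatocyte markers tested, 4 were called lower in KO than in WT at day 2, and their summed signal was 279341 to 366880 in KO against 481432 to 546322 in WT. Quantile normalization, by which all arrays take on 1 shared distribution of signals, left none of the 9 called lower at day 2 and had 2 called higher in KO, Ttr (0.23, adjusted p 0.0417) and Cyp2e1 (0.36, adjusted p 0.0125).

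Promoter sequence is shown for Igfbp1 and Igfals, the 2 genes with the largest falls in KO. Promoter windows (250 bases before to 50 after a start) from RefSeq on GRCm38.p6 were found for 9 of the 10 genes, 14 windows in all, and Socs2 had no entry. Each window was searched on both strands for the FOXO half-sites CAAAACAA and CAAAATAA and for the STAT5 site TTCNNNGAA. Of 32851 windows of that length over all genes, 2.51% held the first half-site, 1.66% the second, 0.1% (33 windows) both, and 8.3% the STAT5 site. Igfbp1 (chr11:7197787-7202546) had both half-sites at -108 to -101 and -98 to -91 from its start, in capitals here (the second reads TTATTTTG on the plus strand), and no other window of the 10 genes had either. The stretch is the 150 bases before the start, chr11:7197637-7197786, plus strand.
Igfbp1: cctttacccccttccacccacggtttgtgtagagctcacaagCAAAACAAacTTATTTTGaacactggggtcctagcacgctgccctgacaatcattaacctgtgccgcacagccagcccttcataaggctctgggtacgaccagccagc

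The STAT5 site stood in 2 of the 14 windows, both of Igfals (chr17:24877844-24882011), before 2 of its 3 annotated starts. They are printed as 29 bases each, plus strand, with the site in capitals: chr17:24877598-24877626 holds it at -236 to -228 of the first start, and chr17:24878163-24878191 at -58 to -50 of the second.
Igfals, first start: gatctataatTTCTCAGAAaagaggctga
Igfals, second start: ctgccaggtgTTCCTAGAAgaggccctgg
A match describes letters only, and binding was not measured here.

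Igf1, Igfals and Ghr, the genes of endocrine IGF-I, its circulating complex and the growth hormone receptor, were called lower at day 2 than at day 0 in both genotypes, by 2.16-fold to 4.53-fold in KO and 2.68-fold to 4.28-fold in WT, and Igfbp1 and Igfbp4 were called lower in KO. In KO livers 5 of the 10 genes were called lower and none higher, where 4.49% of all genes were called lower and 8.69% either way. In WT livers 3 were called lower and none higher, where 5.38% of all genes were called lower and 12.6% either way. The 3 genes called lower in both compare with 1.55% of all genes. The median log2 difference of the 10 genes was -0.67 in KO and -0.75 in WT, beside 0.05 in KO and -0.11 in WT for all genes tested. Over the same days 7 of the 9 hepatocyte markers were called lower and none higher in KO, and 1 lower and 3 higher in WT, and their part in the falls in KO was not tested. After quantile normalization 2 of the 9 markers were called lower and none higher in KO, and 3 lower and none higher in WT. The number of marker calls in KO, and their direction in WT, therefore depended on the scaling.

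**Figure D1:**
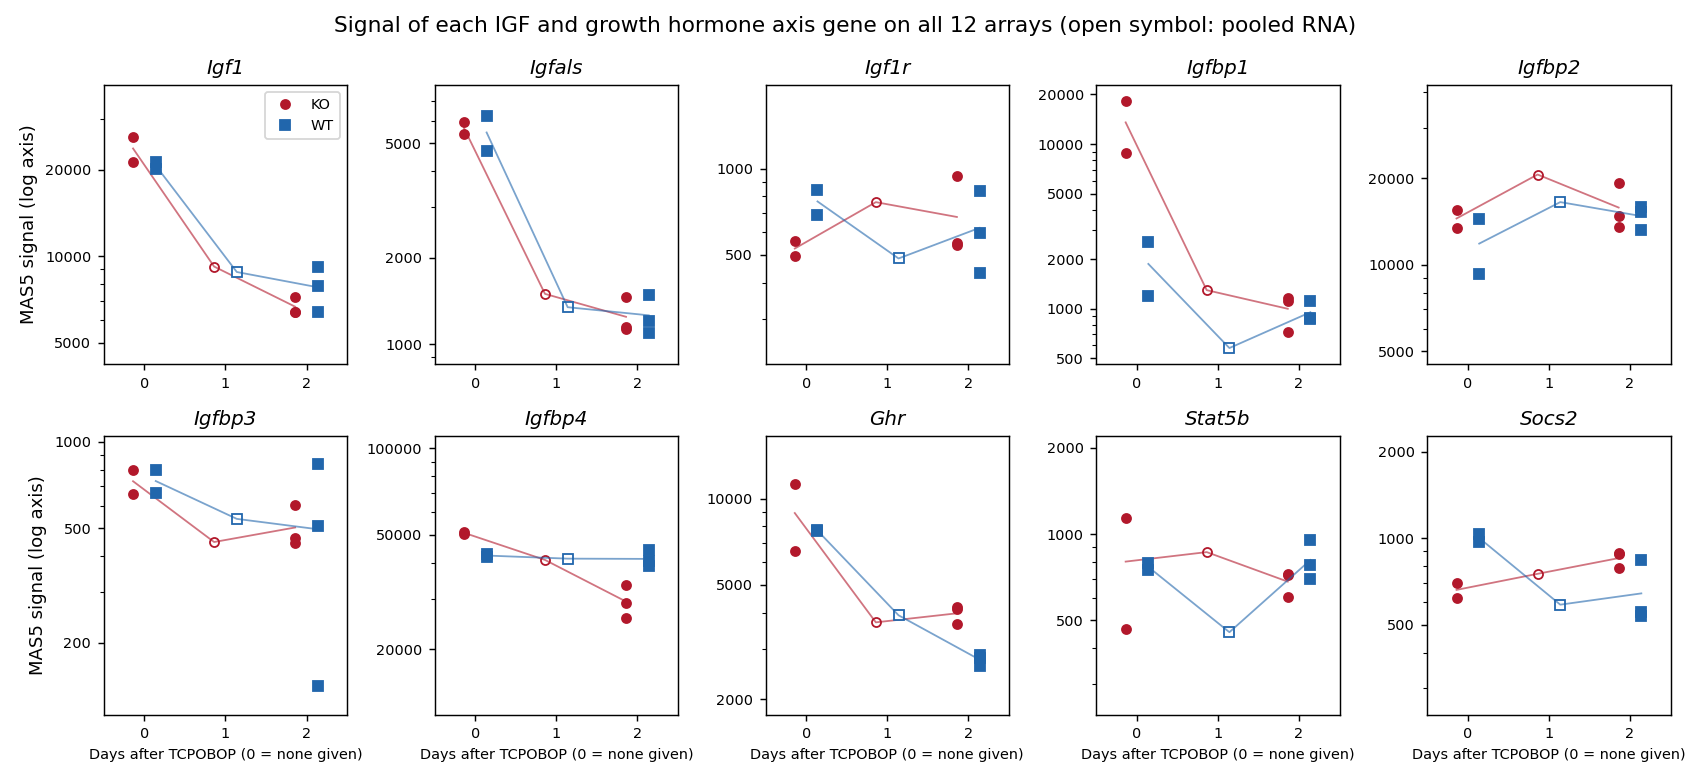
MAS5 signal (log axis) of each of the 10 genes on every array, against days after TCPOBOP, with KO circles left of WT squares; open symbols are the day 1 pools and lines join group means. Igf1, Igfals and Ghr stand lower at days 1 and 2 than at day 0 in both genotypes, and Igfbp1 stands highest in the 2 KO arrays of day 0 (18268 and 8793).

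Igf1 (chr10:87858265-87937047), by probe set 1452014_a_at, read 26094 and 21337 in KO livers at day 0, 9201 in the KO pool at day 1, and 6412, 6409 and 7182 in KO livers at day 2. The WT livers gave 21235 and 20107 at day 0, 8807 in the day 1 pool, and 7862, 6371 and 9140.3 at day 2. Every day 2 array lay below every day 0 array, and the genotypes overlapped at day 2. The fall was 3.54-fold in KO (-1.82 ± 0.16, adjusted p 3.52e-05) and 2.68-fold in WT (-1.42 ± 0.16, adjusted p 0.000118). The change in KO minus the change in WT was -0.40, with a 95% interval of -0.88 to 0.08 (adjusted p 0.319).

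All 4 Igf1 probe sets were called lower at day 2 in both genotypes. Adjusted over all 23038 kept probe sets, their differences ran from -2.12 (1434413_at) to -0.89 (1419519_at) in KO and from -2.47 to -0.98, at the same probe sets, in WT. Between the genotypes at day 2 they disagreed in sign as deposited. Probe set 1434413_at read 2839, 2346 and 3067 in KO at day 2, against 1939.9, 1366 and 1847.5 in WT, a called difference of 0.68 (adjusted p 0.0469), and 1452014_a_at differed by -0.21 (adjusted p 0.354). After quantile normalization all 4 were higher in KO, by 0.05 (1452014_a_at) to 0.81 (1434413_at), and 1434413_at alone was called (adjusted p 0.0196). Whether these probe sets read different Igf1 transcripts was not tested.

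Igfals, the acid-labile subunit of the circulating IGF complex, read 5931 and 5387 in KO livers at day 0, 1495 in the KO pool at day 1, and 1456, 1131 and 1146 in KO livers at day 2 (1422826_at). In WT livers it read 6214 and 4698 at day 0, 1344 in the day 1 pool, and 1095, 1200.4 and 1481 at day 2. Both pools were already near the day 2 level, and the genotypes overlapped at days 0 and 2. Igfals fell 4.53-fold in KO (-2.18 ± 0.18, adjusted p 2.58e-05) and 4.28-fold in WT (-2.10 ± 0.18, adjusted p 1.63e-05). The 2 changes differed by -0.08, with a 95% interval of -0.62 to 0.46 (adjusted p 0.881).

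Ghr (chr15:3317755-3583352), the growth hormone receptor, read 11222 and 6577 in KO livers at day 0, 3704 in the KO pool at day 1, and 4112, 3654 and 4181.5 in KO livers at day 2 (1417962_s_at). Signals in WT livers were 7683 and 7776 at day 0, 3920.3 in the day 1 pool, and 2845, 2608.5 and 2786 at day 2. The KO day 0 arrays stood far apart, and at day 2 the KO arrays all lay above the WT arrays. Ghr fell 2.16-fold in KO (-1.11 ± 0.18, adjusted p 0.00294) and 2.81-fold in WT (-1.49 ± 0.18, adjusted p 0.000283). Without KO day 0 replicate 1 the KO value was -0.72. The change in KO minus the change in WT was then 0.76, a smaller fall in KO. Without KO day 0 replicate 2 these values were -1.49 and -0.0051. With all arrays the difference between the changes was 0.38 (adjusted p 0.425).

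The other 2 Ghr probe sets also fell in both genotypes. Probe set 1451501_a_at changed by -1.38 in KO and -1.04 in WT, and 1451871_a_at by -1.20 in KO and -1.17 in WT. Their changes in KO minus those in WT were -0.34 and -0.03, and neither was called. The KO minus WT difference of Ghr at day 2 rested on 1 probe set: 1417962_s_at gave 0.53 ± 0.16 (1.45-fold, adjusted p 0.0639, not called), while 1451501_a_at gave -0.31 and 1451871_a_at 0.00. With quantile normalization 1417962_s_at gave 0.72 and was called (adjusted p 0.0141 over genes), as it was with cyclic loess (0.74), array weights (0.51) and only the arrays compared (0.53). The suffix of this probe set marks probes shared by several transcripts.

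**Figure D2:**
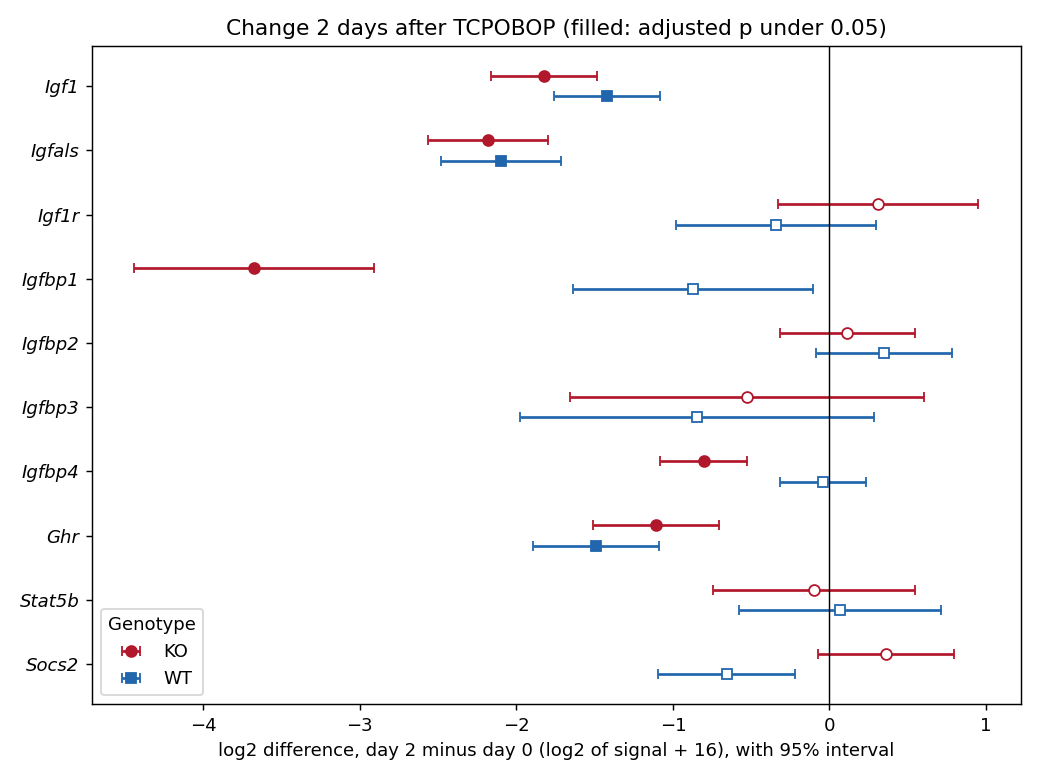
Log2 difference, day 2 minus day 0, of the 10 genes in KO (circles) and WT (squares) with 95% intervals; filled symbols have an adjusted p under 0.05. Igf1, Igfals and Ghr lie left of 0 in both genotypes, whereas Igfbp1 at -3.67 and Igfbp4 at -0.80 are filled in KO alone.

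Igfbp1 was higher in KO than in WT before TCPOBOP and was not called between them 2 days after it. It was the only 1 of the 10 genes called between KO and WT at day 0, where 0.170% of all genes were called, and the median difference of the 10 genes was 0.11 beside -0.03 for all genes. Igfbp1 (1418918_at) read 18268 and 8793 in KO livers at day 0, 1297.5 in the KO pool at day 1, and 719, 1171 and 1110.2 in KO livers at day 2. In WT livers the signals were 1188 and 2555 at day 0, 578 in the day 1 pool, and 875, 1119 and 866 at day 2. Both KO day 0 arrays stood above every other array, and the genotypes overlapped at day 2. At day 0 Igfbp1 was 7.21-fold higher in KO (2.85 ± 0.38, adjusted p 0.0196), and at day 2 the difference was 0.05 ± 0.31 (95% interval -0.64 to 0.73, adjusted p 0.936).

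From day 0 to day 2 Igfbp1 fell 12.8-fold in KO (-3.67 ± 0.35, adjusted p 6.5e-05). In WT the difference was -0.87 ± 0.35 (adjusted p 0.133), with all 3 day 2 arrays below both day 0 arrays. The change in KO minus the change in WT was -2.80 ± 0.49 (adjusted p 0.0187). Of the 10 genes, 2 were called for such a difference, Igfbp1 and Igfbp4, where 3.15% of all genes were. With 2 arrays a group at day 0, the day 0 call of Igfbp1 was lost without WT day 0 replicate 1 (2.30, adjusted p 0.091), with eBayes without trend and robust (adjusted p 0.103), with array weights (adjusted p 0.0645), with the replicate number as a block (adjusted p 0.053) and with only the arrays compared in the fit (adjusted p 0.44). The call of the difference between the changes was lost without WT day 0 replicate 1 (-2.26, adjusted p 0.0623) and with eBayes without trend and robust (adjusted p 0.0706).

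Genes that insulin represses through FOXO factors were read beside Igfbp1. Over all genes, 0.170% were called between KO and WT at day 0. Of 13 such genes tested, 1 was called higher in KO than in WT at day 0 and none lower, with a list median of 0.02 beside -0.03 for all genes. That gene was G6pc, glucose-6-phosphatase, the last enzyme of glucose release. Its signal was 16744 and 19908 in KO livers against 3281 and 2979 in WT livers at day 0, a difference of 2.54 ± 0.33 (5.81-fold, adjusted p 0.0196), and the ranges did not overlap. After quantile normalization the G6pc difference was 2.47 and called (adjusted p 0.0208). The other settings under which the day 0 call of Igfbp1 was lost were not run for G6pc. Pck1, which commits carbon to gluconeogenesis, read 8437 and 16726 in KO and 4935 and 9026 in WT at day 0, and these ranges overlapped. Its difference at day 0 was 0.83 and was not called. Of 11 genes of the amino acid and ER stress response, another inducer of Igfbp1, none was called between KO and WT at day 0, with a median of -0.08. With 0.170% of all genes called, a list of 11 would rarely hold a call, so this count cannot measure that response. Its part in the Igfbp1 values was not tested.

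From day 0 to day 2, 3 of the 13 genes fell in KO and 5 in WT, and none rose in either. The share of all genes called lower was 4.49% in KO and 5.38% in WT. The list median was -0.37 in KO and -0.62 in WT, beside 0.05 in KO and -0.11 in WT for all genes. G6pc fell in KO (-2.69 ± 0.30, adjusted p 0.000213), as did Irs2, the insulin receptor substrate (-1.32 ± 0.28, adjusted p 0.0133), and Tat, which breaks down tyrosine (-0.85 ± 0.15, adjusted p 0.00474). Pck1 (-1.43 ± 0.34, adjusted p 0.0183), the transcription factors Klf15 (-0.91 ± 0.19, adjusted p 0.00933) and Foxo1 (-0.74 ± 0.18, adjusted p 0.0179), and the insulin receptor Insr (-0.75 ± 0.14, adjusted p 0.00343) fell in WT. Tat also fell in WT (-0.53 ± 0.15, adjusted p 0.0429). At day 2, Pck1 (1.12 ± 0.31, adjusted p 0.0429) and Foxo1 (0.61 ± 0.16, adjusted p 0.0366) were called higher in KO than in WT. The change of G6pc in KO minus that in WT was -1.85 ± 0.43 (adjusted p 0.0418), and after quantile normalization it was -1.64 and not called (adjusted p 0.0683). Feeding state and time of day at harvest are not given in the labels, and their part in these values was not tested.

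**Figure D3:**
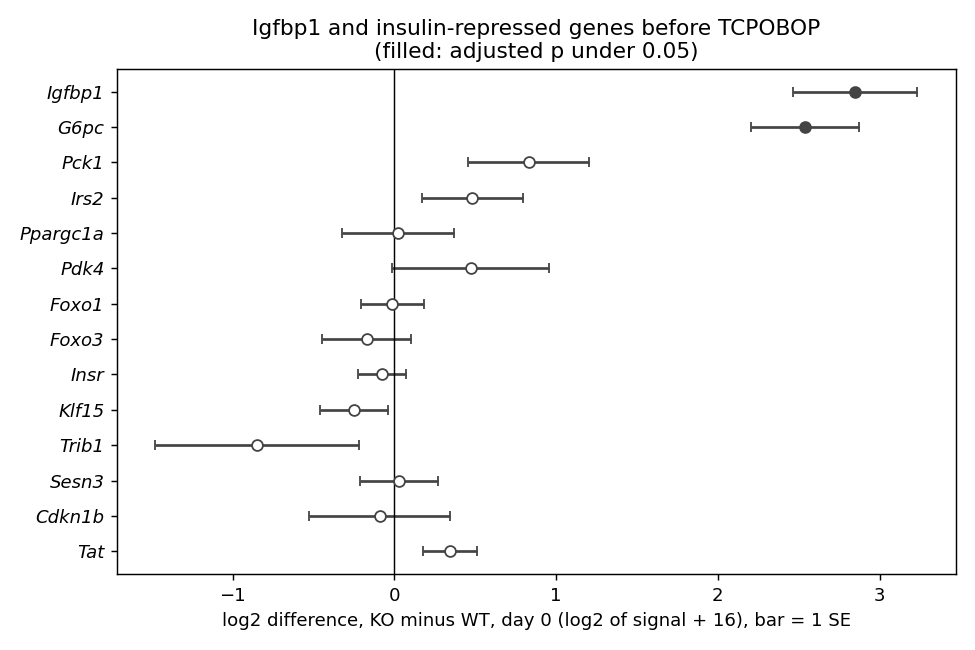
Log2 difference, KO minus WT at day 0, of Igfbp1 (top) and the 13 insulin-repressed genes, with bars of 1 standard error; filled symbols have an adjusted p under 0.05. Igfbp1 at 2.85 and G6pc at 2.54 are filled, and the other 12 genes are open.

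Igfbp4 (chr11:99040005-99052655), a binding protein that the liver makes in quantity, was the only 1 of the 10 genes called between KO and WT at day 2, where 9.22% of all genes were called. The median day 2 difference of the 10 genes was 0.07, beside 0.09 for all genes. Igfbp4 read 50426 and 51264 in KO livers at day 0, 40899.5 in the KO pool at day 1, and 25573, 28859 and 33437 in KO livers at day 2 (1437405_a_at). In WT livers it read 41939 and 42774 at day 0, 41318 in the day 1 pool, and 38959, 40394 and 44342 at day 2. The KO day 2 arrays were the lowest of the 12. Igfbp4 was lower in KO than in WT at day 2 (-0.50 ± 0.11, 1.41-fold, adjusted p 0.0209), it fell from day 0 in KO (-0.80 ± 0.13, 1.75-fold, adjusted p 0.00209), and the WT difference was -0.04 ± 0.13 (adjusted p 0.869). The change in KO minus the change in WT was -0.76 ± 0.18 (adjusted p 0.0432). In KO all 6 Igfbp4 probe sets were called lower at day 2 than at day 0 as deposited, and 5 were after quantile normalization. The sixth, 1437406_x_at, then gave -0.26 (adjusted p 0.22). In WT all 6 Igfbp4 probe sets were lower at day 2 than at day 0, from -0.68 (1421991_a_at) to -0.04 (1437405_a_at). None of these WT differences was called as deposited, and all 6 were after quantile normalization. The difference between the changes was called as deposited for 1 of the 6 probe sets.

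The calls of Igfbp4 between the genotypes were lost when the arrays were set to 1 distribution. After quantile normalization the KO minus WT difference of this probe set at day 2 was 0.02 (adjusted p 0.909) and the difference between the changes 0.09 (adjusted p 0.747), while day 2 was called lower than day 0 in both genotypes, by -0.34 in KO (adjusted p 0.0382) and by -0.42 in WT (adjusted p 0.00956). All 6 Igfbp4 probe sets were lower in KO than in WT at day 2 as deposited, 5 of them called, and none was called after quantile normalization. Of these, 1421991_a_at kept a difference of -0.59 after it (adjusted p 0.0944), against -0.69 as deposited, 1423757_x_at gave -0.38 (adjusted p 0.0597) and 1421992_a_at -0.32 (adjusted p 0.265), while the other 3 lay between -0.03 and 0.17. The day 2 call was also lost without KO day 2 replicate 1 (-0.41, adjusted p 0.0771), without KO day 2 replicate 2 (-0.49, adjusted p 0.0813), without WT day 2 replicate 3 (-0.45, adjusted p 0.0765) and with eBayes without trend and robust (adjusted p 0.0709). The call of the difference between the changes was lost in 14 of 22 alternatives, among them leaving out KO day 0 replicate 2, KO day 2 replicate 1 or 2, either WT day 0 replicate or any WT day 2 replicate (adjusted p 0.0519 to 0.134). Of the 9 hepatocyte markers, 4 were called lower in KO than in WT at day 2 as deposited and none higher, beside 9.22% of all genes called either way. How far the signal range of the arrays or the hepatocyte share of the RNA moved Igfbp4 was not tested.

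**Figure D4:**
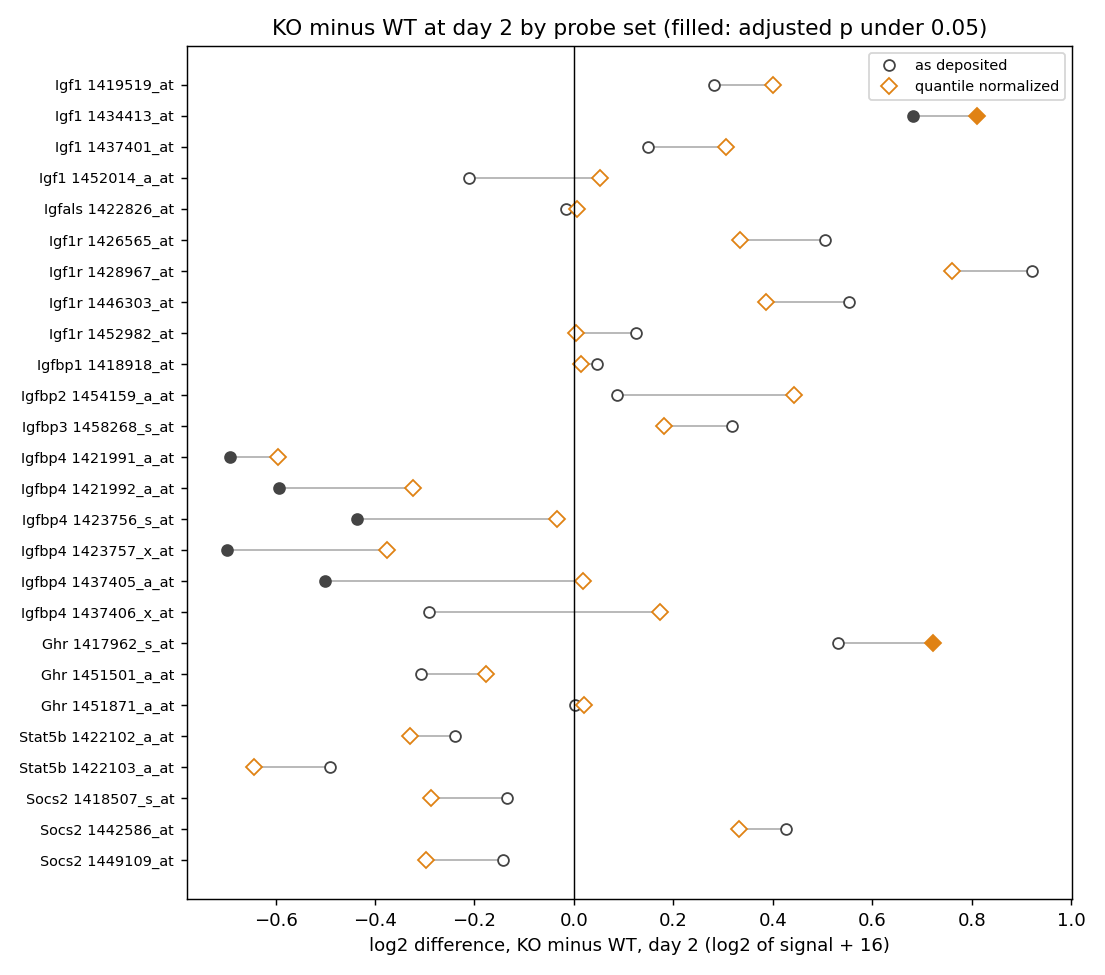
Log2 difference, KO minus WT at day 2, of each of the 26 kept probe sets of the 10 genes, as deposited (circles) and after quantile normalization (diamonds); filled symbols have an adjusted p under 0.05. The 6 Igfbp4 probe sets lie left of 0 as deposited and move right after quantile normalization, and the 4 Igf1r probe sets lie right of 0 without being called.

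Igfbp2, a binding protein that the liver also secretes, read 13459 and 15548 in KO livers at day 0, 20634 in the KO pool at day 1, and 13497, 14743 and 19255 in KO livers at day 2 (1454159_a_at). Across the WT livers it was 9260.1 and 14454 at day 0, 16539 in the day 1 pool, and 15273, 13174 and 15903 at day 2. Both pools lay above all arrays of their genotype at the other days, and the day 0 and day 2 arrays overlapped in each genotype. The difference from day 0 to day 2 was 0.11 in KO (95% interval -0.32 to 0.54) and 0.35 in WT (95% interval -0.08 to 0.78), and neither was called.

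Igfbp3, whose product is the main carrier of IGF-I in blood, lies next to Igfbp1 on chromosome 11, 3539 bases from its end with no annotated gene between them, at chr11:7206086-7215498. It read 799 and 659.6 in KO livers at day 0, 448 in the KO pool at day 1, and 600.8, 464 and 445 in KO livers at day 2 (1458268_s_at). In WT livers it read 798 and 663 at day 0, 539 in the day 1 pool, and 511, 837 and 141 at day 2. The 3 WT day 2 arrays spread more widely than any other group, and no comparison of Igfbp3 was called. The KO minus WT difference was 0.00 at day 0 (95% interval -1.24 to 1.24), where Igfbp1 differed by 2.85. A second probe set, 1423062_at, did not pass the filter, since it was above the array's median on none of the 12 arrays.

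Igf1r (chr7:67952257-68233668), the receptor for IGF-I, read 495 and 558 in KO livers at day 0, 764 in the KO pool at day 1, and 941, 552 and 541 in KO livers at day 2 (1452982_at). The WT signals were 692 and 845 at day 0, 486 in the day 1 pool, and 836, 595 and 433 at day 2. Days overlapped in both genotypes, KO lay below WT at day 0, and no comparison was called. The 4 kept probe sets were all higher in KO than in WT at day 2, by 0.12 to 0.92, with adjusted p between 0.162 and 0.794. For all genes with a mean log2 signal of 8 to 10, the median of this difference was 0.19. After quantile normalization the 4 probe sets ran from 0.005 (1452982_at) to 0.76 (1428967_at), and none was called. With median centring 1452982_at gave -0.048. The fifth probe set, 1452108_at, did not pass the filter.

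Stat5b (chr11:100780731-100859004), the transcription factor that growth hormone activates, gave different results by probe set. Probe set 1422102_a_at read 466 and 1137 in KO livers at day 0, 865 in the KO pool at day 1, and 728, 719 and 602 in KO livers at day 2. In WT livers it read 789.7 and 747 at day 0, 455 in the day 1 pool, and 783, 956 and 698.5 at day 2. Days overlapped in both genotypes, and no comparison was called. The mean of the kept probe sets was called lower at day 2 in KO (-0.73, adjusted p 0.0399), against -0.10 by 1422102_a_at. By 1422103_a_at, Stat5b read 273, 302.5 and 432.5 in KO livers at day 2, against 888.5 and 859 in KO livers at day 0, a called fall of -1.36 (adjusted p 0.00444 over probe sets). This probe set read 529.5, 435 and 451 in WT livers at day 2, against 592 and 773 in WT livers at day 0, a difference of -0.51 that was not called (adjusted p 0.195). Its change in KO minus that in WT was -0.85 and was not called (adjusted p 0.186).

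Socs2 (chr10:95383903-95417321), an inhibitor that growth hormone induces, gave opposite signs by probe set in KO livers. Its brightest probe set, 1442586_at, read 701 and 622 in KO livers at day 0, 752 in the KO pool at day 1, and 888, 883 and 789 in KO livers at day 2. WT livers read 1034 and 971 at day 0, 587.5 in the day 1 pool, and 555, 838 and 536 at day 2. The day 2 arrays lay above the day 0 arrays in KO and below them in WT, differing by 0.36 ± 0.20 in KO (adjusted p 0.32) and -0.66 ± 0.20 in WT (adjusted p 0.0516). The difference between the changes, 1.02 ± 0.28, was not called (adjusted p 0.073), and it was called without WT day 2 replicate 2 (1.22, adjusted p 0.0329). Without that array the fall in WT (-0.86, adjusted p 0.0104) and the KO minus WT difference at day 2 (0.63, adjusted p 0.0393) were called too, against 0.43 (adjusted p 0.143) at day 2 with all arrays.

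The other 2 kept Socs2 probe sets fell in KO. Probe set 1449109_at read 1929 and 1243 in KO livers at day 0, 973 in the KO pool at day 1, and 416, 269.8 and 617 in KO livers at day 2. In WT livers it read 772 and 1302 at day 0, 702 in the day 1 pool, and 393, 537 and 449 at day 2. The day 2 arrays lay below the day 0 arrays in both genotypes. The difference was -1.87 in KO (adjusted p 0.00502) and -1.11 in WT (adjusted p 0.051), and 1418507_s_at gave -2.20 in KO (adjusted p 0.00694) and -1.33 in WT (adjusted p 0.0591). Taking the mean of the kept probe sets in place of the brightest gave -1.24 in KO (adjusted p 0.0169) and -1.03 in WT (adjusted p 0.0308), both called. No single direction is therefore given for Socs2 in KO. The remaining 3 Socs2 probe sets did not pass the filter.

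At day 1, with 1 pooled array a genotype and no test, 6 of the 10 genes read below both day 0 arrays in both genotypes, as did 25.4% of all genes. These were Igf1, Igfals, Igfbp1, Igfbp3, Igfbp4 and Ghr. By genotype the counts were 6 of 10 in KO, where 40.2% of all genes did so, and 9 of 10 in WT, where 44.9% did. The day 1 pool was lower than the day 0 mean by 2.56-fold for Igf1, 3.75-fold for Igfals, 2.31-fold for Ghr and 9.66-fold for Igfbp1 in KO. In WT it was lower by 2.34-fold for Igf1, 3.99-fold for Igfals, 1.97-fold for Ghr and 2.96-fold for Igfbp1.

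Of 16 other IGF system genes tested, 2 fell from day 0 to day 2 in KO and 1 fell in WT, and none rose, with medians of 0.05 in KO and -0.22 in WT. Among all genes, 4.49% were called lower in KO and 5.38% in WT. Igfbp7, a binding protein made largely by non-parenchymal cells, read 1621, 1784.5 and 1786 in KO livers at day 2, against 3696 and 3319 in KO livers at day 0 (-1.01 ± 0.12, adjusted p 0.000326). In WT livers Igfbp7 read 1952.5, 1954 and 1965 at day 2, against 2232 and 2537 at day 0. The change of Igfbp7 in KO minus that in WT was -0.73 ± 0.17 (adjusted p 0.043), and after quantile normalization it was -0.59 and not called (adjusted p 0.0884). The summed signal of 9 stellate cell markers was 10779 to 11920 in KO at day 2, against 13206 to 18137 in KO at day 0. In WT it was 9873 to 10397 at day 2, against 13660 to 14003 at day 0. That of 11 sinusoidal endothelial markers was 10755 to 12772 at day 2 in KO, against 11500 to 13870 at day 0, which overlap. In WT the endothelial sum was 9295.6 to 10301.7 at day 2, against 11964.1 to 12218.5 at day 0, without overlap. The part of the stellate and endothelial cells in the fall of Igfbp7 was not tested. Irs2 fell in KO and Insr in WT, as given above. At day 2, Grb14, an adaptor that inhibits the insulin receptor, was lower in KO than in WT (-0.48 ± 0.13, adjusted p 0.039), and Igf2bp3, an RNA-binding protein, was higher (0.69 ± 0.19, adjusted p 0.0462). Both calls were lost after quantile normalization, with -0.42 for Grb14 (adjusted p 0.0693) and 0.66 for Igf2bp3 (adjusted p 0.0511).

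Of 14 other genes of growth hormone receptor signalling tested, none was called from day 0 to day 2 in KO and 1 was in WT, with medians of 0.02 in KO and -0.03 in WT. Over all genes, 8.69% were called either way in KO and 12.6% in WT. Ptpn11, the phosphatase SHP2, was higher in WT at day 2 (0.63 ± 0.14, adjusted p 0.0111). Shc1, an adaptor protein, was lower in KO than in WT at day 2 (-0.77 ± 0.19, adjusted p 0.0278).

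Of 26 further target genes of growth hormone and STAT5 in liver, 4 rose and 4 fell from day 0 to day 2 in KO, and 5 rose and 6 fell in WT, with medians of 0.12 in KO and -0.29 in WT. Called shares over all genes, either way, were 8.69% in KO and 12.6% in WT. Slco1a1, an organic anion transporter that male livers express more, read 1058, 1172 and 1167 in KO livers at day 2, against 5547 and 3832 in KO livers at day 0 (-2.01 ± 0.21, adjusted p 0.000112). In WT livers Slco1a1 read 402, 431 and 619 at day 2, against 1549.5 and 1882 at day 0 (-1.81 ± 0.21, adjusted p 0.000165). Slco1a1 was higher in KO than in WT on both days, by 1.42 ± 0.23 before TCPOBOP (adjusted p 0.033) and 1.22 ± 0.19 at day 2 (adjusted p 0.0045), without overlap. Elovl3, a fatty acid elongase, rose in KO (1.52 ± 0.26, adjusted p 0.00369) and in WT (2.18 ± 0.26, adjusted p 0.000245), and Cyp3a44, a P450 that female livers express more, rose in KO (2.89 ± 0.30, adjusted p 0.000129) and in WT (2.37 ± 0.30, adjusted p 0.000365). Probes for Cyp3a44 may also read other Cyp3a genes. Bcl6, a repressor that opposes STAT5, rose in KO (1.96 ± 0.40, adjusted p 0.00939), and Acot3, a peroxisomal thioesterase, fell in WT (-4.13 ± 0.63, adjusted p 0.002). Bcl6 read 253.2 and 73.9 in KO livers at day 0, and Acot3 read 110.1, 154.2 and 833 in WT livers at day 2. Both sizes therefore rest partly on signals near or below the array medians. At day 2, 4 of the 26 genes were higher in KO than in WT and 2 were lower (4 and 1 after quantile normalization). The share called over all genes was 9.22%. Called genes of the list went both ways in each of these comparisons. The list mixes genes that male livers express more with genes that female livers express more. Its medians and counts therefore cannot measure a change in growth hormone or STAT5 activity.

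The genes whose log2 signals were most like each of the falling genes over the 12 arrays are given as a description, since all points share the same days and genotypes. Igf1 was most like Agt, the gene for angiotensinogen (Pearson r 0.987), Col18a1 (0.986) and Cyp2c68 (0.986). Igfals was most like Rdh16 (0.979), Ugt3a1 (0.978) and Igf1 (0.974). Ghr was most like Abca8a (0.969), Keg1 (0.964) and Ndfip1 (0.961), and Igfbp4 was most like the secreted liver proteins Ahsg (0.974), F2 (0.958) and Apoc1 (0.958). Igfbp1 was most like Ip6k2 (0.929), Polr2e (0.922) and Efcc1 (0.918).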

How the data were processed

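The deposited values are MAS5 signal intensities that the authors made, per the submitters' processing notes. The version of MAS5 is not given in the sources used here. Genes came from the platform annotation: 34945 of 45101 probe sets name 1 gene. Intensities were used without further normalization as log2(signal + 16). Probe sets had to exceed the array median on at least 2 of 12 arrays, and the brightest kept one stood for its gene. One limma 3.58.1 fit (R 4.3.3) of 6 group means to all arrays, with eBayes trend and robust and 6 residual degrees of freedom, gave two-sided tests with Benjamini-Hochberg adjustment over all genes, or over all kept probe sets for single probe sets. The fit was tested on simulated data. The day 1 pools enter the fit but were not tested. No 2 arrays held identical values. The text names all 10 genes, Yap1, up to 4 called genes a list and comparison, and the 3 most correlated genes for 5 of the 10, a subset chosen after values were seen. The members and lists were chosen with earlier results of these data known. Alternatives covered normalization, pseudocount, filter, probe set choice, model, replicate block and leaving out each array. Single genes outside the 10 were followed under quantile normalization alone. Quantile normalization of every probe set, and its counts for the gene lists, were added after seeing the data. Figures used Python 3.11.15 and matplotlib 3.10.9.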

Additional observations from a re-analysis of the deposited data

Results flagged for a closer look

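For Igfbp1, the change from day 0 to day 2 differed between KO and WT by the test of the difference itself (-2.80 on the log2 scale, adjusted p 0.0187 in limma). For Igfbp4, the change also differed between KO and WT by that test (-0.76, adjusted p 0.0432), and it was 0.09 after quantile normalization and -0.00 after cyclic loess normalization.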

How the results depend on the processing

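The falls of Igf1, Igfals and Ghr from day 0 to day 2 in both genotypes, and those of Igfbp1 and Igfbp4 in KO, kept their direction and their call in all 17 alternatives run for each. The ranges were -1.97 to -1.63 in KO and -1.70 to -1.28 in WT for Igf1, -2.30 to -2.11 in KO and -2.30 to -1.90 in WT for Igfals, -1.49 to -0.72 in KO and -1.66 to -1.23 in WT for Ghr, and in KO -4.20 to -3.15 for Igfbp1 and -0.99 to -0.34 for Igfbp4. Numbers of the 10 genes called also depended on the setting. From day 0 to day 2 in KO, the mean of kept probe sets called Stat5b (-0.73, adjusted p 0.0399) and Socs2 (-1.24, adjusted p 0.0169) lower as well. In WT over those days, Socs2 was called lower in 5 of 17 alternatives and Igfbp4 in 2. Between KO and WT at day 2, 1 was called as reported, 0 by eBayes without trend and robust, 2 with array weights, 2 with only the arrays compared, and 0 to 2 when 1 array was left out. At day 0, 1 was called as reported, 0 by eBayes without trend and robust, 0 with array weights, 0 with only the arrays compared, and 0 to 1 when 1 array was left out. With the replicate number as a block, 0 were called at day 0 (Igfbp1 2.85, adjusted p 0.053); deviations of KO and WT arrays at day 2 correlated between -0.058 and 0.034, so the numbers were not taken as pairs. For the difference between the changes, 2 were called as reported, 1 with quantile normalization, cyclic loess, no filter, the mean of kept probe sets or array weights, 0 by eBayes without trend and robust, and 0 to 3 when 1 array was left out. Of the 26 kept probe sets, 2 were called between KO and WT at day 2 after quantile normalization, against 6 as deposited. These 2 were 1434413_at of Igf1, called both ways, and 1417962_s_at of Ghr, not called as deposited. After quantile normalization 14 were called between day 2 and day 0 in WT (8 as deposited) and 1 for the difference between the changes (2 as deposited). The cause of these shifts was not tested.

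Values that took the other sign were mostly small and uncalled: of 54, 1 was called, the fall of Socs2 in KO. With quantile normalization, KO minus WT at day 2 was 0.052 for Igf1, 0.0058 for Igfals and 0.019 for Igfbp4. At day 0 it was -0.018 for Igfals, 0.023 for Igfbp3 and -0.068 for Igfbp4, and the change in KO minus the change in WT was 0.024 for Igfals, 0.24 for Igfbp2 and 0.087 for Igfbp4. With median centring, KO minus WT at day 2 was -0.048 for Igf1r, -0.13 for Igfbp1 and -0.086 for Igfbp2, at day 0 it was 0.012 for Igfbp3, and day 2 minus day 0 in WT was 0.082 for Igfbp4. With cyclic loess normalization, KO minus WT at day 2 was 0.14 for Igf1, 0.079 for Igfals, -0.0090 for Igf1r and 0.037 for Igfbp4, and at day 0 it was 0.041 for Igfbp3. The change in KO minus the change in WT was then 0.067 for Igf1, 0.017 for Igfals and 0.31 for Igfbp2. With the mean of a gene's kept probe sets, KO minus WT was 0.23 for Igf1 at day 2, and 0.14 for Stat5b and 0.25 for Socs2 at day 0. Day 2 minus day 0 was then -1.24 for Socs2 in KO and -0.22 for Stat5b in WT, and the change in KO minus the change in WT was -0.21 for Socs2.

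When 1 array was left out, KO minus WT at day 2 ran from -0.13 to 0.11 for Igfals, -0.13 to 0.36 for Igf1r, -0.081 to 0.26 for Igfbp1, -0.063 to 0.19 for Igfbp2 and -0.38 to 0.84 for Igfbp3. At day 0 it ran from -0.14 to 0.27 for Igfals, -0.14 to 0.13 for Igfbp3, -0.23 to 0.54 for Ghr and -0.70 to 0.56 for Stat5b. Day 2 minus day 0 ran from -0.036 to 0.22 for Igfbp2 and -0.73 to 0.53 for Stat5b in KO, and from -0.053 to 0.17 for Stat5b in WT. The change in KO minus the change in WT ran from -0.28 to 0.12 for Igfals, -0.56 to 0.085 for Igfbp2, -0.38 to 0.84 for Igfbp3, -0.0051 to 0.76 for Ghr and -0.80 to 0.46 for Stat5b. A day 0 group without 1 of its arrays has a lone sample, whose spread is taken from the rest of the fit.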
